A study of Mus musculus with 6 samples.

Results

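The homeobox genes Hoxa3, Hoxa5, Hoxa6, Hoxa7, Hoxa9, Hoxa10 and Hoxa11 and their cofactor genes Meis1 and Pbx3 were followed through 9 RNA-seq libraries from 6 samples of mouse blood-forming cells. They are a named list of 9 of the 23282 genes counted, and all 9 were found. Hox proteins are transcription factors encoded in 4 chromosomal clusters. In blood, genes of the Hoxa cluster are high in stem and progenitor cells and are shut down as cells mature. Hoxa9 binds DNA together with proteins of the TALE class, which holds the Meis, Pbx, Pknox and Tgif families. Leukaemia fusions of MLL, among them MLL-AF9, are known to keep Hoxa9 and Meis1 active.

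All cells came from mice of mixed strain (129/Sv x C57BL/6). LSK cells, a marrow fraction rich in stem cells and early progenitors (Lin-, Sca1+, c-Kit+), came from polyIC-treated littermates 2 months old that all carried MxCre, a Cre switched on by interferon in blood and other tissues. The LSK groups were labelled Mll4f/f + Cre (1 library) and WT (1 library), each made from about 50 picked cells by a PCR-based single-cell method. Mll4 is taken here as Kmt2d, which encodes a histone H3 lysine 4 methyltransferase that acts at enhancers. Whole bone marrow cells (WBM) transformed with MLL-AF9 were then infected with a Cre retrovirus (Mll4f/f + Cre, 2 libraries, called deleted below) or an empty retrovirus (Mll4f/f + EV, 2 libraries, called intact), and GFP+/Tomato+ cells were sorted 5 days later. The protocol names marrow carrying MxCre as the source, so the intact cells may also hold that transgene. Cre exposure goes with deletion in this pair of groups, and the effects of the enzyme and of the deletion cannot be told apart. In a separate transformation, MLL4-/- marrow received MLL-AF9-neo together with FOXO3-IRES-GFP (2 libraries) or an empty vector, EV (1 library), and was sorted 1 week after selection in G418. FOXO3 is a transcription factor tied to quiescence and stress resistance. All MLL-AF9 groups are given a growth duration of 14 days. Whether paired libraries stem from separate cultures is not labelled, so p-values measure the spread between these libraries. The deleted and the intact pair each joined female and male cells (see the sex genes below), so their spread includes that difference. The spread of the FOXO3 pair may be technical.

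Library totals ranged from 25895041 to 61950773 counts, and values are given as CPM, counts scaled to a common library total. The pair of FOXO3 libraries was far closer than the other pairs (chi-square of the counts per degree of freedom 2.01, against 201 in the deleted and 154 in the intact pair). It was therefore summed into 1 column for the tests. Foxo3 itself stood at 1292 and 1309 CPM with the FOXO3 virus and at 27.3 CPM with the empty vector. Kmt2d, counted over the whole gene, stood at 95.6 and 73.7 CPM in the deleted and 79.5 and 61.7 CPM in the intact libraries, at 102 to 116 CPM in MLL4-/- cells, and higher in the LSK library labelled Mll4f/f + Cre (13.9 against 1.88 CPM). Such counts do not check a deletion of some exons, so the directions given for Mll4 rest on the labels. By Xist and the Y-linked Ddx3y, deleted library 1 and intact library 2 came from female cells. Deleted library 2 and intact library 1 came from male cells, and the 3 MLL4-/- libraries carried Ddx3y. In the LSK library labelled Mll4f/f + Cre, Ddx3y stood at 14.4 CPM and Xist at 2.05 CPM. In the WT library they stood at 0.827 and 3.65 CPM, so whether the LSK libraries differ in sex is not settled. In bulk samples, fewer cells that express a gene and less RNA per cell cannot be told apart.

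Sequence before the annotated start shows how differently members of the cluster are built. The 250 bases upstream of 3 starts are printed 5′ to 3′ with CpG dinucleotides in capitals, from RefSeq on GRCm38.p6. Pbx3 had no entry among the promoters. Of the members found there, Hoxa5 is shown as the most CpG-rich, Hoxa9 as the poorest, and Meis1 as the partner on another chromosome.
Hoxa5, chr6:52204588-52204837, minus strand: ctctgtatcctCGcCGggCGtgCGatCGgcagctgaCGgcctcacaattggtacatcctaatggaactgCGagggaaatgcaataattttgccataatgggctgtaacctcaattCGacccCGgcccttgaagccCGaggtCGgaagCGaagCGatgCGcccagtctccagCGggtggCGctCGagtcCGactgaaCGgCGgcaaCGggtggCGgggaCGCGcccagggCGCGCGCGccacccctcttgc
Hoxa9, chr6:52227371-52227620, minus strand: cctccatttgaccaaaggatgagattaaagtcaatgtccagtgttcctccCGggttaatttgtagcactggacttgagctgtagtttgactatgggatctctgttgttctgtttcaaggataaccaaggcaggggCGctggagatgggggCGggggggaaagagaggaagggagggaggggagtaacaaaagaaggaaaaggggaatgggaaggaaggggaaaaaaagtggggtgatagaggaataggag
Meis1, chr11:19018970-19019219, minus strand: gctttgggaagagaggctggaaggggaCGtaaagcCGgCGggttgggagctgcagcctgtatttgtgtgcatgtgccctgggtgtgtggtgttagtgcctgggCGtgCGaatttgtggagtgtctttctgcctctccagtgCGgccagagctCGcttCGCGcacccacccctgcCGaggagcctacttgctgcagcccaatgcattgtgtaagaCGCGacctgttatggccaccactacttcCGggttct
The Hoxa5 stretch holds 28 CpG, the Meis1 stretch 13 and the Hoxa9 stretch 3. Over 32851 mouse promoters of the same length the median was 6. Hoxa6 had 24, Hoxa3 18 and Hoxa7 7, Hoxa11 had 13, and the annotated starts of Hoxa10 had 7 and 20. 3 short motifs were searched on both strands in these windows. The HOX with PBX motif TGATTNAT and the posterior HOX motif TTTACGA were in none of the member windows, and are in 2.82% and 0.478% of all promoters. The MEIS motif TGACAG was found once, in the Hoxa3 window, and is in 15.9% of all promoters. As only 1 match was found, no matches overlapped.

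Nearly all members stood higher in the MLL4-/- transformation than in the first MLL-AF9 transformation. All 3 MLL4-/- libraries stood above all 4 libraries of the first transformation for 8 of the 9 members, and this held for 32.9% of all 14990 genes tested. Hoxa9, the member best known as a leukaemia driver, stood at 2.89 and 2.79 CPM in the intact libraries, 10.99 and 9.55 CPM in the deleted ones, 94.9 CPM with the empty vector and 149 and 147 CPM with FOXO3. In LSK cells Hoxa9 was at 8.68 CPM in the WT library and 7.99 CPM in the one labelled Mll4f/f + Cre. These 6 groups do not overlap in Hoxa9, but the LSK values and the deleted pair lie close together. The LSK libraries were made by another method, so levels across the methods are given only side by side.

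**Figure D1:**
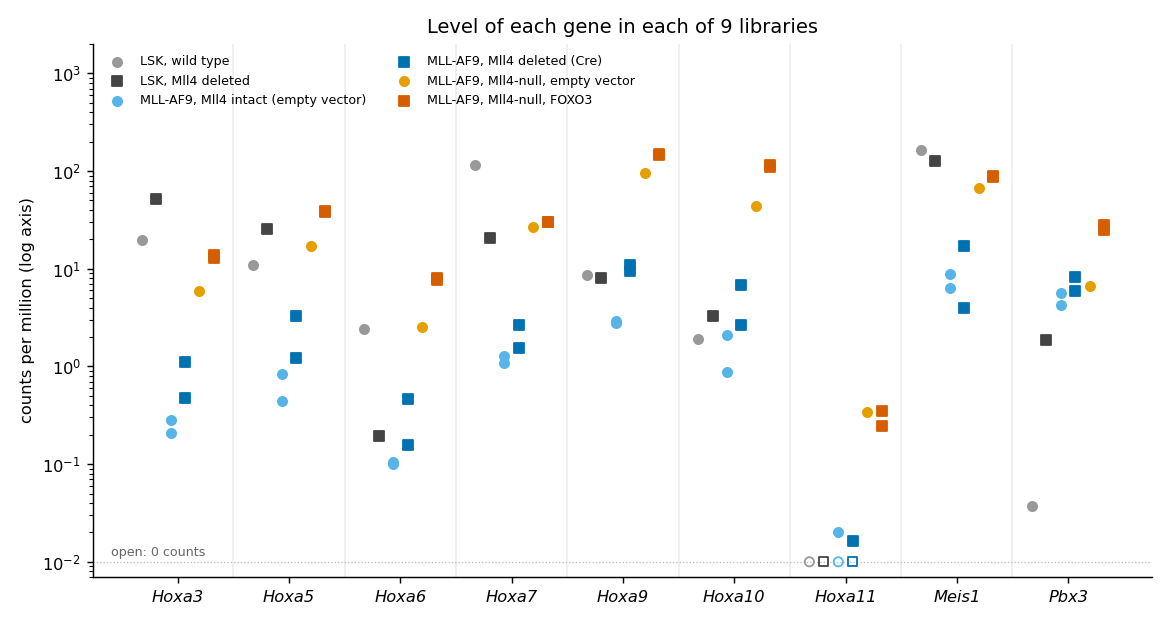
CPM of the 9 members (log axis) in each of 9 libraries, 1 point per library, coloured by group; open symbols mark 0 counts. For every member except Pbx3 the MLL4-/- points lie above the points of the first transformation. Meis1 (127 and 162 CPM) and Hoxa3 (52.0 and 19.8 CPM) are higher in both LSK libraries than in all MLL-AF9 libraries.

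Levels were scaled by the longest annotated coding transcript. In the empty-vector library Hoxa9 was at 29.4 CPM per kilobase, Meis1 at 19.9, Hoxa10 at 17.0 and Hoxa7 at 13.4. Hoxa5 was at 9.12 CPM per kilobase, Hoxa6 at 2.90, Pbx3 at 2.44, Hoxa3 at 2.27 and Hoxa11 at 0.150. With FOXO3 the means were 45.9 CPM per kilobase for Hoxa9 and 44.4 for Hoxa10. Their libraries were at 46.2 and 45.6 for Hoxa9 and at 43.3 and 45.4 for Hoxa10. In the intact libraries the order was different, with Meis1 at 2.62 and 1.89, Pbx3 at 1.57 and 2.06 and Hoxa9 at 0.896 and 0.864 CPM per kilobase. The first 2 of these overlap, and both lie above Hoxa9. Hoxa10, Meis1 and Pbx3 have more than 1 annotated coding transcript, and the longest was used. The shortest of Hoxa10 has 1436 bases, against 2565 in the one used. Scaled by the shortest, Hoxa10 would stand above Hoxa9 both with the empty vector and with FOXO3, so their order depends on this choice.

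The loss of Mll4 was examined in the first transformation, deleted against intact. Hoxa9 rose, from 2.84 ± 0.0717 to 10.3 ± 1.02 CPM (SD, n = 2 each). TMM factors were 1.02 and 1.01 in the deleted and 0.924 and 0.840 in the intact libraries, which lowers the ratios of CPM. After TMM scaling the rise of Hoxa9 was a log2 fold change of 1.65 ± 0.17 (SE), or 3.13-fold. The quasi-likelihood test of edgeR gave it an adjusted p of 0.0484. Hoxa9 was the only member called, 1 of 9, where 1.23% of all genes tested were called higher and 0.854% lower. That adjusted p is also the smallest of any gene in the comparison, so Hoxa9 stands with 312 genes close to the threshold. The call held in 14 of 19 settings, the main one included, and was lost without intact library 1 (adjusted p 0.291) or intact library 2 (0.267), with library sex as a term (0.141), in a fit of these 4 libraries alone (0.0551) and with RLE scaling (0.0529). Over the 19 settings its log2 fold change lay between 1.52 and 1.86, and its adjusted p between 3.59e-09 and 0.291.

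The other Hoxa genes had estimates of the same sign that did not pass. Hoxa5 and Hoxa10 lie in the same cluster as Hoxa9 and are also active in early progenitors. Hoxa5 was at 3.26 and 1.23 CPM in the deleted libraries and at 0.832 and 0.445 CPM in the intact ones, a log2 fold change of 1.64 ± 0.55 (adjusted p 0.157). Hoxa10 was at 6.81 and 2.65 CPM against 2.08 and 0.869 CPM, or 1.51 ± 0.57 (adjusted p 0.187). For both genes deleted library 1 lay well above deleted library 2, which came close to intact library 1.

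Hoxa3, from the anterior end of the cluster, was at 1.10 and 0.473 CPM in the deleted libraries and at 0.208 and 0.283 CPM in the intact ones (log2 fold change 1.48 ± 0.54, adjusted p 0.179). Hoxa6 was at 0.468 and 0.158 CPM against 0.104 and 0.101 CPM (1.45 ± 0.66, adjusted p 0.256), from 5 to 29 counts per library. Hoxa7, which lies between Hoxa6 and Hoxa9, was at 2.68 and 1.55 CPM against 1.27 and 1.09 CPM (0.65 ± 0.33, adjusted p 0.298). In these 3 genes the groups did not overlap, but deleted library 2 stood near the intact libraries. Hoxa11, used mainly outside blood, had 1 count in each group, so no fold is given.

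The cofactor genes had smaller estimates. Meis1, whose product stabilises Hoxa9 on DNA, stood at 17.3 and 4.005 CPM in the deleted libraries and at 8.75 and 6.32 CPM in the intact ones (log2 fold change 0.31 ± 0.64, adjusted p 0.806). The deleted libraries lie on either side of both intact ones. Without deleted library 1 the estimate turned to −1.11 (adjusted p 0.0509). Pbx3, which binds DNA jointly with Hox proteins, stood at 8.17 and 5.93 CPM against 4.30 and 5.64 CPM (0.29 ± 0.30, adjusted p 0.607), and turned to −0.04 without intact library 1.

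Within libraries of the same sex, Hoxa9 was higher in the deleted cells both times, at 10.99 against 2.79 CPM in female and 9.55 against 2.89 CPM in male cells. Meis1 differed in direction, at 17.3 against 6.32 CPM in female and 4.005 against 8.75 CPM in male cells. With 1 library on each side these are values without a test.

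Across the list, by CPM without TMM scaling, 7 of 9 members were higher in both deleted than in both intact libraries. The same was true of 43.3% of all genes. 5 members (Hoxa3, Hoxa5, Hoxa6, Hoxa9 and Hoxa10) were at least 2-fold higher, against 8.37% of all genes, but without deleted library 1 only Hoxa9 was. The median log2 fold change of the 8 members with a fold was 1.47, and that of all genes was 0.04.

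**Figure D2:**
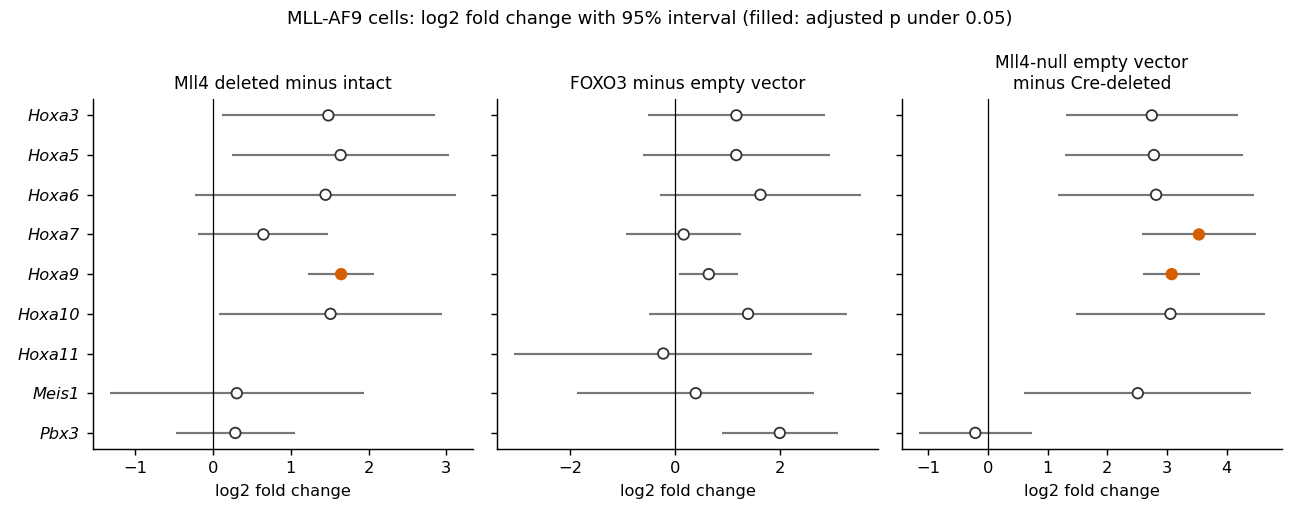
Log2 fold change of each member (dots) with its 95% interval (lines) in the 3 comparisons of MLL-AF9 cells; filled dots passed an adjusted p of 0.05, and Hoxa11 is left out where a group had 3 counts or fewer. Filled are Hoxa9 for Mll4 loss (1.65), and Hoxa7 (3.53) and Hoxa9 (3.08) between the transformations; none is filled for FOXO3, where Pbx3 has the highest estimate (1.99).

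Some marker lists separated the deleted from the intact libraries and others did not. Early granulocyte progenitor markers summed to between 10398 and 13807 CPM in the deleted libraries and to between 1848 and 2504 CPM in the intact ones. Of these 8 genes, 4 were called higher in the deleted cells (Ms4a3, Prtn3, Ctsg and Elane). Monocyte and macrophage markers summed to between 2596 and 4488 CPM in the deleted and to between 5590 and 6668 CPM in the intact libraries, with 3 of 18 called lower (Ccl4, Itgax and Clec7a). Cell cycle genes summed to between 2750 and 3233 CPM against 1113 to 1115 CPM, with 11 of 15 called higher. Neutrophil markers overlapped between the groups, at 11037 and 13332 CPM in the deleted and 12685 and 5911 CPM in the intact libraries. Of their 11 tested genes Camp was called higher and Mmp9 lower. Mast cell, basophil and eosinophil markers differed within groups instead: 11862 CPM in deleted library 1, where Meis1 was highest, against 1526 CPM in deleted library 2 and 6198 and 2955 CPM in the intact libraries. The part of these cell differences in the values of the members was not tested.

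**Figure D3:**
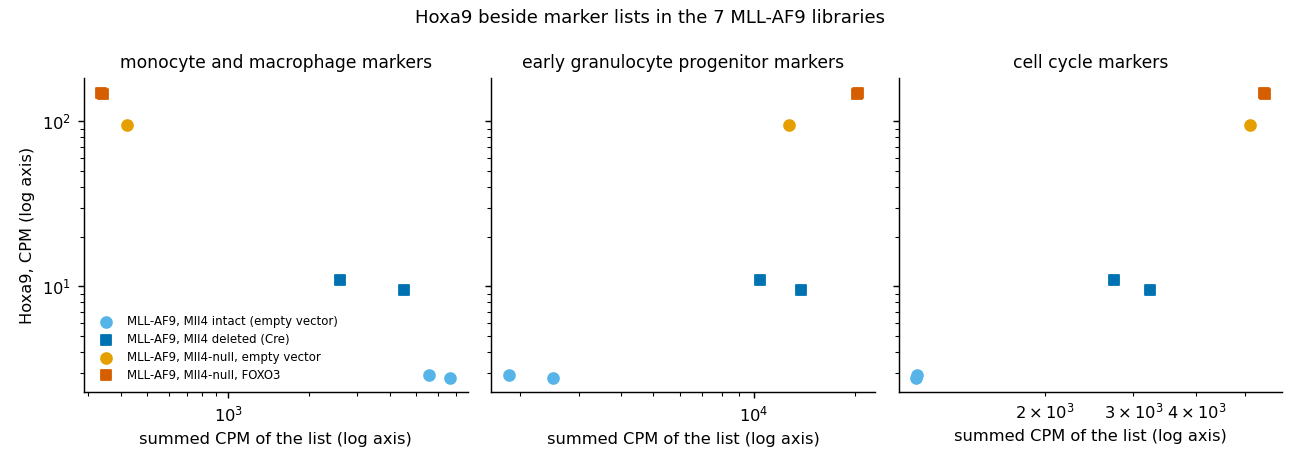
Hoxa9 (CPM, log axis) against the summed CPM (log axis) of 3 marker lists, 1 point for each of the 7 MLL-AF9 libraries. Hoxa9 is highest where macrophage markers are lowest (337 to 420 CPM in the MLL4-/- cells) and where cell cycle genes are highest (5118 to 5473 CPM). Early granulocyte progenitor markers do not follow this order throughout. They are highest with FOXO3 (20300 to 20373 CPM), but the empty-vector library (12750 CPM) lies within the range of the deleted libraries (10398 to 13807 CPM).

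FOXO3 was examined in MLL4-/- MLL-AF9 cells against the empty vector. Pbx3 had the largest estimate, at 24.9 and 28.2 CPM with FOXO3 and 6.68 CPM with the empty vector. Its log2 fold change was 1.99 ± 0.44 (3.97-fold), but the adjusted p in the edgeR fit was 0.130. No member was called by edgeR, where 0.213% of all genes were called higher and 0.974% lower. 2 members, Hoxa9 and Pbx3, had an unadjusted p under 0.05, and so did 2018 of the 14990 genes. This comparison has 1 column on each side, assumed to vary like the other groups. With the FOXO3 pair entered as 2 libraries Pbx3 was called (adjusted p 0.0299), as it was by DESeq2 (0.00356).

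Hoxa10, Hoxa9 and Hoxa6 were also higher with FOXO3 without passing. Hoxa10 was at 111 and 117 CPM against 43.5 CPM (log2 fold change 1.39 ± 0.75, adjusted p 0.557). Hoxa9 was at 149 and 147 CPM against 94.9 CPM (0.64 ± 0.22, adjusted p 0.312). Hoxa6 was at 7.60 and 8.02 CPM against 2.53 CPM (1.62 ± 0.75, adjusted p 0.464). In each, both FOXO3 libraries lie above the empty-vector library and close to each other.

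Hoxa5 and Hoxa3, at 38.2 and 38.6 against 17.1 CPM and at 13.7 and 12.9 against 5.88 CPM, both had a log2 fold change of 1.16 (adjusted p 0.621 and 0.587). Hoxa7 differed little, at 30.4 and 30.1 against 27.0 CPM, and its log2 fold change of 0.16 had a 95% interval from −0.94 to 1.26. Meis1 was at 88.4 and 86.9 against 66.7 CPM, with 0.39 and an interval from −1.88 to 2.65. Hoxa11 remained near the limit of detection, with 13 and 11 counts against 18. A 2-fold change in either direction lies within the interval for Meis1, so it was not detectable.

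Of the 9 members, 8 were higher in both FOXO3 libraries than in the empty-vector library, as were 45.2% of all genes. 5 members (Hoxa3, Hoxa5, Hoxa6, Hoxa10 and Pbx3) were at least 2-fold higher, against 7.42% of all genes. The median log2 fold change of the members was 1.16, and that of all genes was 0. The empty-vector library also held more RNA of other lineages. Erythroid markers summed to 96.3 CPM there and to 3.48 and 3.05 CPM with FOXO3 (2 of 8 tested called lower, Ank1 and Car1), and mast cell, basophil and eosinophil markers to 2963 against 270 and 272 CPM (Epx called lower, 1 of 8). Their part in the difference of the members was not tested.

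The empty-vector MLL4-/- cells were also set beside the deleted cells of the first transformation. These groups differ in transformation, vector, selection and sort as well as in how Mll4 was lost, and the sources cannot be told apart. The comparison shares the empty-vector library with that of FOXO3 and the deleted libraries with that of Mll4 loss. Hoxa7 was 11.6-fold higher in the MLL4-/- cells, at 27.0 CPM against 2.68 and 1.55 CPM (log2 fold change 3.53 ± 0.37, adjusted p 0.0185). Hoxa9 was 8.43-fold higher, at 94.9 CPM against 10.99 and 9.55 CPM (3.08 ± 0.19, adjusted p 0.0148). These were the 2 members called of 9, where 1.07% of all genes were called higher and 5.9% lower. Both calls held in 14 of 18 settings. They were lost without either intact library, which is not in the contrast (adjusted p from 0.0667 to 0.0811, with log2 fold changes of 3.13 for Hoxa9 and 3.58 for Hoxa7), with library sex as a term and when only the compared libraries were fitted.

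5 further members had large estimates and did not pass. Hoxa10 was at 43.5 CPM against 6.81 and 2.65 CPM (log2 fold change 3.06 ± 0.62, adjusted p 0.0538). Hoxa3 had 2.74 (adjusted p 0.0543), Hoxa5 2.78 (0.0572) and Hoxa6 2.82 (0.0680). Meis1, at 66.7 CPM against 17.3 and 4.005 CPM, had 2.51 ± 0.75 (adjusted p 0.110). Hoxa11 had 18 counts in the empty-vector library and 1 in the deleted libraries together, a ratio of 32.1 per total count with an exact counting interval from 5.07 to 1338.

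Pbx3 was the member whose groups overlapped. It stood at 6.68 CPM with the empty vector, between the deleted libraries at 8.17 and 5.93 CPM, with a log2 fold change of −0.21 ± 0.37 (adjusted p 0.751). Thus 7 members were at least 2-fold higher in this comparison, beside 6.2% of all genes, and their median over 8 members was 2.80, against −0.05 for all genes. Macrophage markers moved the other way, from between 2596 and 4488 CPM in the deleted cells to 420 CPM (14 of 18 called lower). The erythroid markers Ank1, Car1, Klf1 and Slc4a1 were called higher. The part of cell composition was not tested.

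Further homeobox genes were taken from lists of the Hox clusters and of the TALE class. The rest of the Hoxa cluster, with 5 of 8 counted genes tested, had no call by edgeR in any of the 3 comparisons, and none by DESeq2. At an unadjusted p under 0.05 there was 1 of these genes for Mll4 loss, 0 for FOXO3 and 3 between the transformations. Of the Hoxb cluster 6 of 10 genes were tested, and their median log2 fold change for Mll4 loss was −0.56. This median includes Hoxb13, which had 0 counts in both groups and entered as 0. Over all 9 members, the low Hoxa11 included, the median was 1.45. Hoxb4, a gene known for expanding stem cells when overexpressed, was at 5.17 and 6.18 CPM in the deleted and 7.03 and 5.96 CPM in the intact libraries, at 3.07 CPM with the empty vector and at 2.51 and 2.96 CPM with FOXO3. Its log2 fold changes of −0.40 for Mll4 loss and −1.02 between the transformations did not pass.

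Hoxb5, a marker of long-term stem cells, was the only Hoxb gene called by edgeR in the 3 comparisons. DESeq2 called 3 Hoxb genes between the transformations, 1 for FOXO3 and 0 for Mll4 loss. Hoxb5 had 49 counts in the deleted libraries (mean 0.519 CPM) and 0 in the empty-vector library (adjusted p 0.0344), which makes it at least 9.08-fold lower there against a floor of 3 counts. Hoxb2, also at 0 there, was at 2.63 and 0.662 CPM in the deleted libraries (adjusted p 0.0506), at least 28.8-fold lower against the same floor. Hoxb13 was at 3.72 and 3.61 CPM with FOXO3, at 0.0190 CPM with the empty vector and at 0 counts in the other MLL-AF9 libraries (adjusted p 0.143 for FOXO3). No Hoxd gene passed the filter, and of the Hoxc cluster Hoxc8 alone did, at 1.07 to 2.14 CPM in the MLL-AF9 libraries and with no call.

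**Figure D4:**
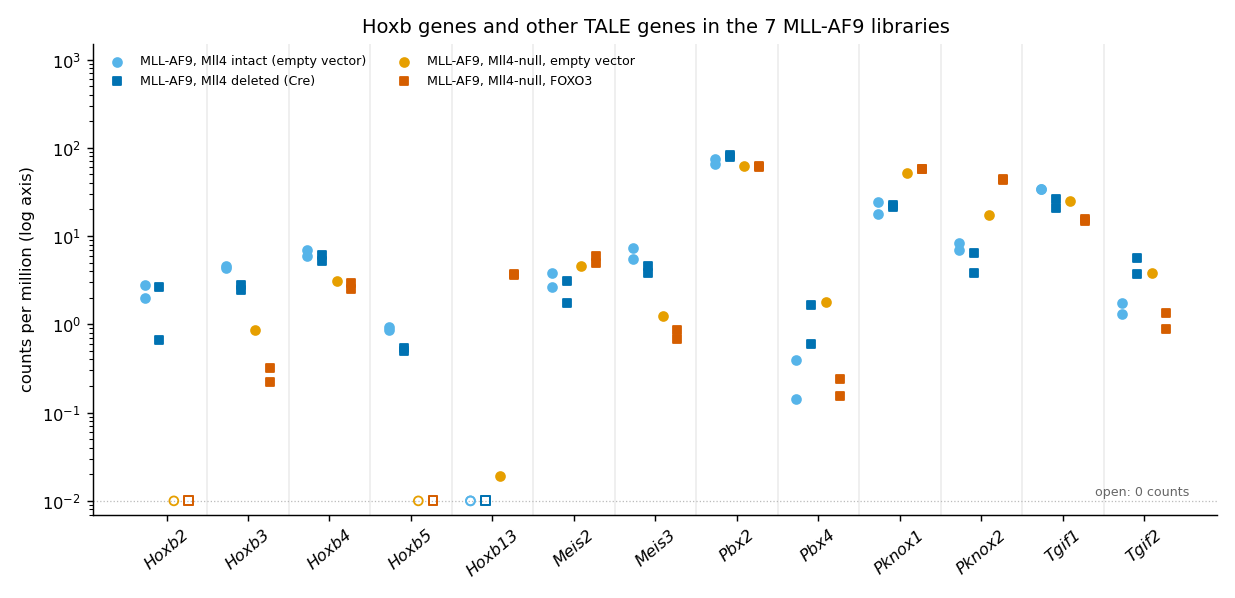
CPM (log axis) of Hoxb genes and other TALE genes in the 7 MLL-AF9 libraries, 1 point per library, coloured by group; open symbols mark 0 counts. Hoxb2 and Hoxb5 are at 0 counts in the MLL4-/- cells, whereas Pknox1 and Pknox2 are higher there than in the first transformation.

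All 10 other TALE genes were tested. None was called for Mll4 loss or FOXO3 by edgeR. In each of these comparisons 3 had an unadjusted p under 0.05, and DESeq2 called 3 for Mll4 loss and 0 for FOXO3. Pknox1, a partner of Pbx proteins, rose from 21.5 and 22.2 CPM in the deleted cells to 52.3 CPM with the empty vector (log2 fold change 1.13 ± 0.22, adjusted p 0.0487). Pbx2, at 60.1 to 83.2 CPM in the 7 libraries, was not called.

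The machinery that MLL fusions recruit was covered by the next list. Of 21 genes of the fusion cofactor, DOT1L and elongation complexes, 0 were called for Mll4 loss by edgeR and 0 by DESeq2, with 4 at an unadjusted p under 0.05 and a median log2 fold change of 0.01. Mllt6, a fusion partner gene of MLL, fell with FOXO3 from 22.0 CPM to 2.29 and 2.52 CPM (log2 fold change −3.19 ± 0.23, adjusted p 0.0241) and between the transformations (−1.38 ± 0.19, adjusted p 0.0268). Kmt2a, which encodes MLL itself, rose between the transformations (1.06 ± 0.20, adjusted p 0.0453). Of 24 tested genes for Polycomb and other regulators of the Hoxa cluster, 0 were called by edgeR in any of the 3 comparisons. DESeq2 called 3 for Mll4 loss, 1 for FOXO3 and 8 between the transformations, and 4, 3 and 11 had an unadjusted p under 0.05.

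The next list held 21 genes described as targets of HOXA9 or MEIS1. Their median log2 fold change was 0.33 for Mll4 loss, −1.64 with FOXO3 and 0.27 between the transformations. The medians of all genes tested were 0.04, 0 and −0.05. Of the 21 genes, Myb and Id2 were called for Mll4 loss by edgeR. At an unadjusted p under 0.05 in edgeR there were 10 for Mll4 loss, 16 for FOXO3 and 12 between the transformations. Over all 14990 genes tested these numbers were 3701, 2018 and 4197. DESeq2 called 6, 10 and 11 of the 21 genes in the same order. Myb, a progenitor transcription factor, stood at 218 and 154 CPM in the deleted and 54.4 and 38.2 CPM in the intact libraries (log2 fold change 1.81 ± 0.25, adjusted p 0.0484). Id2, an inhibitor of helix-loop-helix factors, stood at 224 and 222 against 540 and 768 CPM (−1.77 ± 0.26, adjusted p 0.0484). Between the transformations Lmo2 and Eya1 were called higher, and Camk2d, Hmox1, Igf1, Trib2 and Id2 lower. Lmo2, a bridging factor of blood progenitors, had a log2 fold change of 1.49 ± 0.18. With FOXO3 Eya1, a transcriptional cofactor and phosphatase, was called lower, at 0.0539 and 0.0446 CPM against 14.5 CPM with the empty vector (adjusted p 0.0446).

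Genes whose levels followed the members most closely were sought over the 7 MLL-AF9 libraries, among 12422 genes, by Pearson's r of log2 (CPM + 0.5). For Hoxa9 they were Smc6, Mtfr2, Gtpbp10, Smc4 and Ash2l, all with r of at least 0.998. For Meis1 they were Sirt1, AI987944, Celf2, Kif5b and Med13 (0.994 to 0.999), and for Pbx3 AA792892, Tbc1d30, Clec2g, Skida1 and Pramel17 (0.990 to 0.997). Among the members, Hoxa5 and Hoxa10 were closest (r = 0.999) and Hoxa11 and Pbx3 least close (r = 0.691). These libraries fall into 4 groups and 2 transformations, so such values mostly describe the group levels and carry no test.

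LSK cells were compared by Mll4 genotype with 1 library each, so no test was made, and the intervals are exact binomial (Clopper-Pearson) ones that cover counting error only. Meis1 was at 162 CPM in the WT library and 127 CPM in the library labelled Mll4f/f + Cre. Members of the cluster differed in both directions. Hoxa3 was 2.62-fold higher in the Mll4f/f + Cre library (1346 against 528 counts, log2 ratio 1.39, interval 1.24 to 1.54), and Hoxa5 2.34-fold higher (656 against 288 counts, 1.23, interval 1.02 to 1.43).

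Hoxa7 was 5.56-fold lower there, with 532 against 3036 counts, or 20.5 against 114 CPM (log2 ratio −2.47, interval −2.61 to −2.34). Hoxa6, its neighbour, had 5 against 64 counts (−3.64, interval −5.31 to −2.34). Hoxa9 was alike within counting error, at 207 and 231 counts (−0.12, interval −0.40 to 0.16). Hoxa10 had 86 against 51 counts (0.79, interval 0.28 to 1.32), and Meis1 −0.35.

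Pbx3 had 48 counts in the Mll4f/f + Cre library and 1 in the WT library, a log2 ratio of 5.62 with an interval from 3.08 to 10.96. Hoxa11 had 0 counts in both, which allows up to 0.116 and 0.113 CPM. Of the 10174 genes that averaged 1 CPM or more, 28.1% were at least 2-fold higher and 34.9% at least 2-fold lower in the Mll4f/f + Cre library, so 2 members higher and 2 lower, of the 7 with that mean, are near what all genes show. Pbx2, which is no member, was at 29.5 CPM in the Mll4f/f + Cre library and 0.226 CPM in the WT library.

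**Figure D5:**
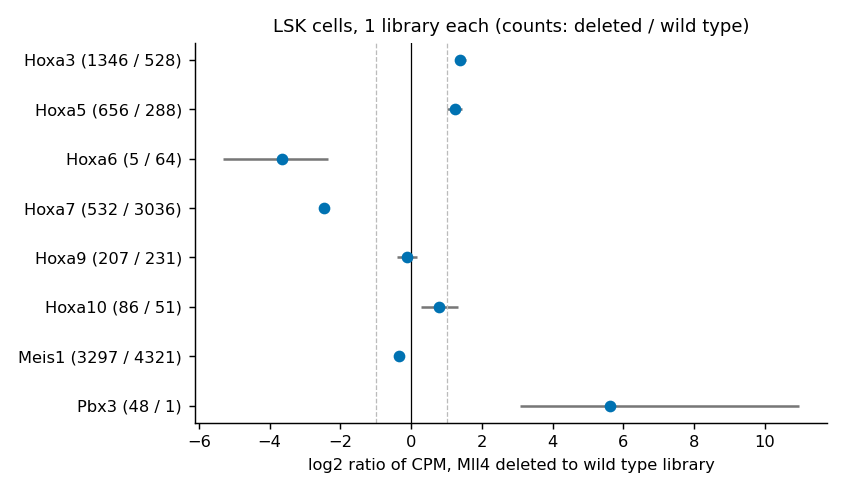
Log2 ratio of CPM in the LSK library labelled Mll4f/f + Cre to that in the WT library for 8 members (dots), with exact counting intervals (lines) and the counts of both libraries in brackets; dashed lines mark 2-fold. Hoxa3 and Hoxa5 lie to the right, Hoxa6 and Hoxa7 to the left, and Hoxa9 at −0.12.

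In the annotation, Hoxa3 spans Hoxa4, Hoxa5, Hoxa6 and the antisense gene Hoxaas3, Hoxa5 and Hoxa6 overlap Hoxaas3, and Hoxa11 overlaps Hoxa11os. The sources used here do not give how reads of overlapping genes were shared, and values of Hoxa3, Hoxa5, Hoxa6 and Hoxa11 are less certain. Hoxa7, Hoxa9 and Pbx3 overlap no annotated gene, and Hoxa10 and Meis1 overlap only genes without counts of their own. Hoxaas3 was at 0.0606 to 0.252 CPM in the first transformation, at 1.10 CPM in the empty-vector library and at 2.81 and 3.40 CPM with FOXO3.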

How the data were processed

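Each library has 1 deposited table of raw counts, unscaled integers by NCBI gene number. The submitters' processing notes name TopHat2 2.0.11, Bowtie 0.12.8 and mm9. How reads were counted, on which annotation and whether by strand, is not given in the sources used here. Names came from the RefSeq table of GRCm38.p6, used for names, overlaps between genes and upstream sequence only: 23185 of 23282 gene numbers matched and 97 did not, and these stayed in the totals. Promoters were looked up by gene number, and 8 of 9 members matched, all but Pbx3.

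The 7 MLL-AF9 libraries entered 1 fit of edgeR 4.0.16 (R 4.3.3; TMM scaling, default expression filter, quasi-likelihood test) with 4 groups. The FOXO3 pair was summed, which left 6 columns and 2 residual degrees of freedom, with Benjamini-Hochberg adjustment over 14990 genes with a threshold of 0.05. After ±, log2 fold changes carry the SE and CPM values the SD. LSK libraries were compared by ratios of CPM with 95% intervals. A count of 0 was taken to allow up to 3 counts. Alternatives were other scalings and filters, robust estimation, DESeq2 1.42.0, the FOXO3 pair as 2 libraries, only the libraries compared, a library-number block, library sex as a term and each library left out.

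The members, lists, tests and the summing of the FOXO3 pair were chosen with earlier results of these data known. The rule for named genes took all members, list genes that were called (up to 4 per list with the smallest p), abundant Hoxb and TALE genes, and the 5 genes most like Hoxa9, Meis1 and Pbx3. Results for a few genes within this rule are not reported here. Hoxb2, Hoxb13, Pknox2, Hoxaas3, Hoxc8 and the uncalled examples outside that rule were named after their values were seen. The counts of members at least 2-fold higher or with no overlap between groups, the within-sex values, the motifs and the marking of CpG were also added after values were seen, the last because the motifs matched almost nowhere. A microRNA gene on another chromosome had been listed in the Hoxa cluster in error and was dropped. PCR copies are not independent molecules, so intervals and limits describe counting error alone.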

Additional observations from a re-analysis of the deposited data

Results flagged for a closer look

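Hoxa6 and Hoxa7 were lower in the LSK library labelled Mll4f/f + Cre than in the WT library, with log2 ratios of −3.64 and −2.47, while both were higher in each MLL-AF9 library labelled Mll4 deleted than in each intact one. In the MLL-AF9 cells the edgeR test called neither gene (adjusted p 0.256 for Hoxa6 and 0.298 for Hoxa7). By CPM, 43.3% of all genes tested were likewise higher in both deleted than in both intact libraries. Among genes averaging 1 CPM or more, 34.9% were at least 2-fold lower in the Mll4f/f + Cre LSK library. The difference between the cell types was not tested, since LSK cells have 1 library per genotype, and Hoxa6 rests on 5 against 64 counts there.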

How the results depend on the processing

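With 2 residual degrees of freedom the number of calls moved widely with the settings, and some fold changes near 0 changed sign. For Mll4 loss 1 member and 312 genes were called. The counts were 0 members with RLE scaling (34 genes), 0 in the 4 compared libraries alone (0 genes) and 0 with library sex as a term (0 genes, with 2684 at an unadjusted p under 0.05), but 3 by DESeq2 (2079 genes). Genes called were 2237 with the FOXO3 pair as 2 libraries, 1141 with total counts and 659 without a filter. Total counts moved the all-gene median on the log2 scale from 0.04 to 0.24, and the calls from 184 higher and 128 lower to 936 and 205. RLE gave 9 and 25, and upper quartile scaling 99 and 113. Leaving out each library in turn gave 0 to 2 members, 0 to 1073 genes, and 1 to 5 members at least 2-fold higher, the 0 without either intact library and the 1 without deleted library 1. When genes had to average 5 CPM, the members at least 2-fold higher were 3 for Mll4 loss and 3 for FOXO3, as fewer members passed.

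For FOXO3 0 members and 178 genes were called. Members and genes were 1 and 1069 with the pair as 2 libraries, 1 and 1055 by DESeq2, and 8 and 9710 in the 3 compared libraries, whose spread is that of the FOXO3 pair alone. They were 375 genes without a filter and 0 genes with library sex as a term (1597 at an unadjusted p under 0.05). Leaving out a library gave 0 to 1 members and 0 to 1157 genes. Between the transformations 2 members and 1045 genes were called. Members were 6 with the pair as 2 libraries (3260 genes), 5 with total counts (294 genes higher and 869 lower), 5 without a filter (229 and 1079), 7 by DESeq2 (2764 genes), and 0 with 0 genes both in the compared libraries alone and with library sex as a term. Leaving out a library gave 0 to 7 members and 0 to 2613 genes. The causes were not tested.

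File names number the deleted and intact pairs, and the deviations of equal numbers had r = 0.244 over 10557 genes, but 2 pairs do not show a pairing and equal numbers join a female with a male library. With a replicate block 3 members and 1408 genes were called for Mll4 loss, 1 and 762 for FOXO3, and 7 and 2095 between the transformations. Meis1 for Mll4 loss turned to −0.0079 with the block, −0.022 with library sex as a term and −1.11 without deleted library 1, and ranged up to 0.92 without deleted library 2. Pbx3 ranged from −0.035 without intact library 1 to 0.51 without intact library 2. Pbx3 between the transformations turned to 0.058 with library sex as a term, and ranged from −0.37 to 0.040 when a library was left out. In LSK cells 1 member instead of 2 was at least 2-fold lower with a mean of at least 5 CPM. Depth limits Hoxa6 and Hoxa11 in the first transformation, with 29 counts or fewer per library.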
